A study of Rattus norvegicus with 15 samples.

Results

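Dissociated rat dorsal root ganglion (DRG) cells were exposed to 1.5 mM dibutyryl cAMP (dbcAMP) for 5 lengths of time, with 3 arrays at each, and the results below are those of the longest exposure, 18 h. Its members are the 3 arrays of 15 whose titles give 18 h of cAMP, and the 5006 of 5088 probes with a ratio on at least 2 of these 3 arrays. Each array set RNA of dbcAMP-treated cells, in Cy5, against RNA of cells kept in medium alone, in Cy3. The cells came from lumbar ganglia (L4 and L5) of juvenile rats and were grown in Sato medium on poly-L-lysine or on myelin, and the labels do not say which substrate a given array had. No array had its dyes exchanged. DRG cultures hold neurons, Schwann cells, satellite glia, fibroblasts and leukocytes, so less RNA per cell and fewer cells of a type cannot be told apart in these ratios. Whether separate cultures lay behind the 3 arrays is not stated, so the p-values cover array-to-array spread that could be purely technical.

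Dibutyryl cAMP enters cells and stands in for cyclic AMP, the second messenger that Gs-coupled receptors raise through adenylate cyclase. It activates protein kinase A, which phosphorylates the transcription factor CREB, and CREB binds the cAMP response element in promoters. In DRG neurons, raised cAMP is known for letting axons grow on myelin, by a route that needs new transcription. Phosphodiesterases end the signal.

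All values are log2 ratios of treated over untreated cells, so that 1 stands for 2-fold more and -1 for 2-fold less RNA in treated cells. At 18 h, 1101 of 5006 probes passed limma at an adjusted p under 0.05 on the ratios as deposited (22%), 533 higher (10.6%) and 568 lower (11.3%). With each array centred on the median of each 96-well plate of probes, 1003 passed (20%), 499 higher (9.97%) and 504 lower (10.1%). Both scales agreed in call and direction for 771 probes (15.4%), 360 higher (7.19%) and 411 lower (8.21%), and "rose" and "fell" refer to these from here on. Array weights, which allow for the wider spread of the later arrays, left 376 of them on both scales (7.51%), 163 higher (3.26%) and 213 lower (4.25%). The median spread between arrays (SD) was 0.29 at 18 h and 0.17 at 1 h, so the fit of all times rests in part on narrower arrays than those of 18 h. Applied to simulated data with this unequal spread, that fit made more false calls than its threshold of 0.05 allows, on either scale, so the counts of 1101, 1003 and 771 and the adjusted p-values printed with them are to be read as too favourable. From the 3 arrays of 18 h alone 183 probes passed as deposited (3.66%), 59 higher (1.18%) and 124 lower (2.48%). Over all probes tested, the median log2 ratio was 0.014 as deposited and 0.0013 with plates centred.

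The cAMP response element itself, TGACGTCA, was looked up in RefSeq promoters of the GRCr8 build, from 250 bases before to 50 bases after each gene's start. Of 660 genes with a probe that rose or fell, 518 had a promoter there. The element, which reads alike on both strands, was present in 8 of 264 promoters of genes that rose (3.03%) and in 5 of 256 of genes that fell (1.95%), against 71 of 3315 promoters of all genes tested (2.14%) and 525 of 27457 in the whole table (1.91%). Its core TGACG, on either strand and contained in the full element, was in 30.3% of promoters of genes that rose, 26.2% of those that fell and 27.1% of all tested. The sequences below show that genes of both directions carry the element, in capitals, 5′ to 3′ on the strand of the gene. Each stretch ends before the gene's start, except that of Acox3, where the last base of the element is the start. They are 6 genes that rose and 2 that fell.
Vgf (chr12:25277087-25277126, minus strand, element 90 bases before the start): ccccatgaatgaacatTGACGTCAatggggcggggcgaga
Arnt (chr2:185686453-185686486, plus strand, 240 bases before the start): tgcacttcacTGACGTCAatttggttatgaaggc
Acox3 (chr14:79400881-79400904, minus strand, 7 bases before the start): cgagtcaagggagggaTGACGTCA
Dusp1 (chr10:17184713-17184752, plus strand, 124 bases before the start): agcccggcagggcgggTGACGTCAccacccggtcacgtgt
Mif (chr20:12790280-12790319, plus strand, 61 bases before the start): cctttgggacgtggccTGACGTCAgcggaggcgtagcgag
Lamb3 (chr13:107362493-107362532, plus strand, 44 bases before the start): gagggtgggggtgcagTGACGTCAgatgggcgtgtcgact
Ppargc1a (chr14:63634111-63634150, plus strand, 181 bases before the start): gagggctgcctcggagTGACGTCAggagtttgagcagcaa
Ptpru (chr5:149308858-149308897, minus strand, 48 bases before the start): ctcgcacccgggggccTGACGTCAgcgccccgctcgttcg
Mif, a cytokine that holds macrophages in place, rose by 0.60 (adjusted p = 0.000675), and Lamb3, a chain of laminin, by 0.54 (adjusted p = 0.00756). Arnt, the dimer partner of hypoxia-inducible factors, rose by 0.86, Acox3, a peroxisomal oxidase, by 0.82 and Dusp1, a phosphatase of MAP kinases, by 0.61, but these 3 did not pass with plates centred and array weights (adjusted p = 0.0774, 0.111 and 0.0519). Vgf, a secreted neuropeptide precursor, rose with probe 1D09, at 1.18, 0.74 and 1.15, whereas 52D09 was at 0.24, 0.43 and 0.18 and did not pass as deposited (adjusted p = 0.0686). Ptpru, a receptor tyrosine phosphatase, was at -1.98, -2.05 and -2.12 on the 3 arrays and fell by 2.05 (adjusted p = 1.31e-05). It was at -1.01 at 1 h. Ppargc1a, a transcriptional coactivator, fell by 1.05 but did not pass with array weights (adjusted p = 0.0542), and was already at -1.22 at 1 h. Dusp1, Acox3 and Arnt were already at 0.57, 0.56 and 0.47 at 1 h. Mif was at 0.23, Lamb3 at 0.0034 and Vgf (1D09) at -0.085 at that time.

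At the ends of the ranking, 24 named probes were taken by a rule of size, agreement of the 3 arrays and a call on both scales. Genes of the study's first figure were left out beforehand, so the 24 are not the full ends of the ranking. Their levels at 1 h stand beside them in the plot.

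**Figure D1:**
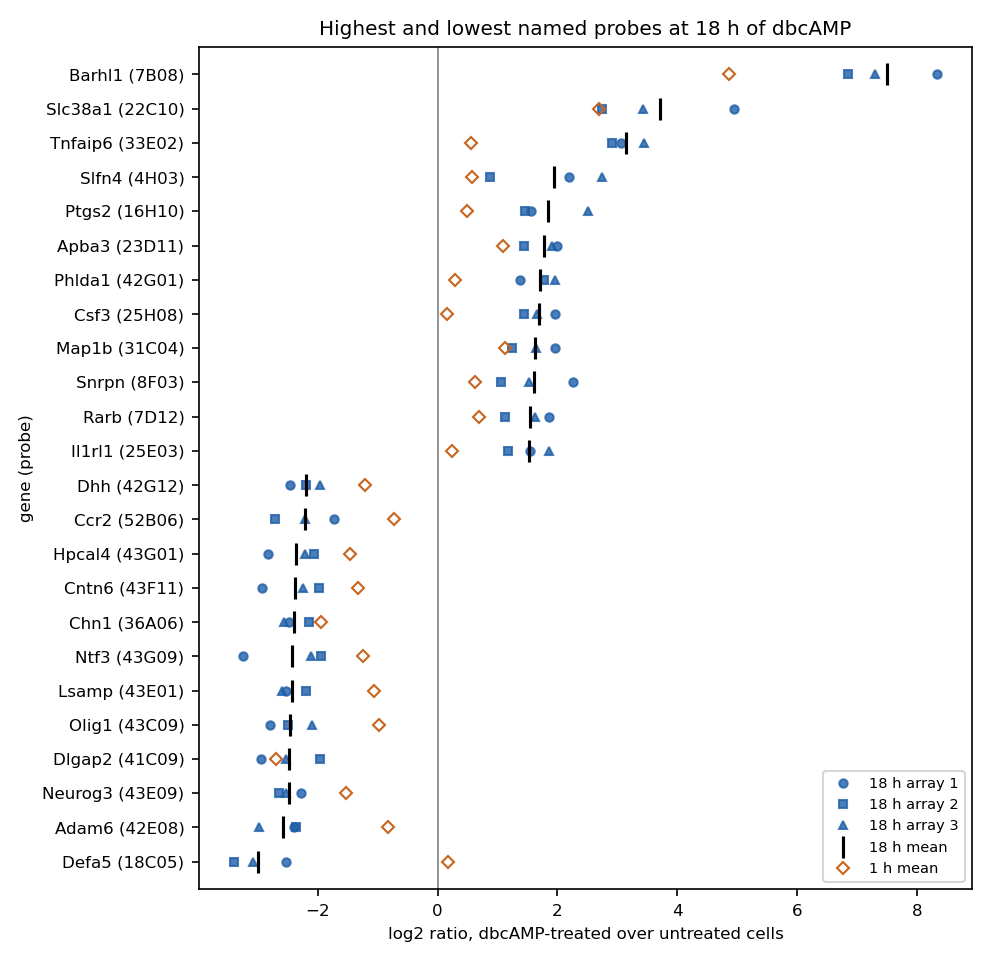
Log2 ratio of dbcAMP-treated over untreated DRG cells (horizontal axis) for 12 named probes at the high end and 12 at the low end of 18 h. Filled symbols are the 3 arrays of 18 h, bars their mean and open diamonds the mean at 1 h. Defa5 lies near 0 at 1 h and between -3.40 and -2.53 at 18 h, whereas Barhl1 and Dlgap2 lie far from 0 at both times.

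Phlda1, a pleckstrin homology protein of stressed and growth factor-treated cells, was at 1.38, 1.77 and 1.96, a mean of 1.70 ± 0.30 (SD, n = 3 arrays, adjusted p = 1.41e-06). Rarb, a retinoic acid receptor that its own ligand induces, was at 1.87, 1.13 and 1.62, a mean of 1.54 ± 0.38 (adjusted p = 0.000103). Snrpn, a splicing protein of imprinted expression, was at 2.27, 1.05 and 1.53. All 3 were above 1 on every array. Map1b, a microtubule-associated protein of growing axons, was at 1.96, 1.25 and 1.64 with probe 31C04, which was already at 1.13 at 1 h, and at -0.17, -0.30 and -0.96 with probe 31C10 (adjusted p = 0.23), so that the probes of this gene differed. Barhl1, Slc38a1, Tnfaip6, Slfn4, Ptgs2, Apba3, Csf3 and Il1rl1 complete the high end.
At the low end, Dhh, the hedgehog ligand of Schwann cells, was at -2.46, -2.19 and -1.96, a mean of -2.20 ± 0.25 (adjusted p = 1.63e-05), and at -1.21 at 1 h. Hpcal4, a neuronal calcium sensor, was at -2.84, -2.06 and -2.21, and Cntn6, a contactin on neurons, at -2.94, -1.97 and -2.25, and both were below -1.3 at 1 h, at -1.46 and -1.33. Chn1, a Rac GTPase-activating protein of axon guidance, was at -2.48, -2.14 and -2.57 at 18 h and at -1.94 at 1 h. Of the 12 lowest, 6 probes (Neurog3, Olig1, Lsamp, Ntf3, Cntn6 and Hpcal4) came from plate 43, the plate with the lowest median, and all 6 were below 0 at 1 h. The others were Defa5, Adam6, Dlgap2, Chn1, Ccr2 and Dhh.

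A dye effect equal at both times cancels in the difference between 18 h and 1 h. By this test 137 of 4995 probes differed (2.74%), of which 59 were higher at 18 h (1.18%) and 78 were lower (1.56%). Those called in the same direction at 18 h on both scales were 57 and 72. Csf3, granulocyte colony-stimulating factor, was at 1.96, 1.45 and 1.66 at 18 h, a mean of 1.69 ± 0.25 (adjusted p = 3.25e-06), and 1.54 above its level at 1 h (adjusted p = 0.000662). Hmox1, the heme oxygenase, was at 1.71, 1.33 and 1.35 at 18 h, 1.06 above 1 h (adjusted p = 0.00753). Col18a1, the collagen that endostatin is cut from, was at 1.42, 1.71 and 0.88, and at -0.21 at 1 h. Epn1, an endocytic adaptor, was at 1.85, 1.16 and 0.95, and Tubg1, the tubulin of microtubule nucleation, at 0.93, 1.26 and 1.66. All 5 genes were higher on every array of 18 h than their mean at 1 h.
In the other direction, Tnc, the matrix protein tenascin-C, was at -1.64, -1.26 and -1.54, a mean of -1.48 ± 0.20 (adjusted p = 2.22e-05), against 0.02 at 1 h. Ankrd1, a muscle and injury-induced ankyrin protein, was at -2.30, -1.84 and -2.24, and at 0.11 at 1 h. Hes1, a Notch-induced repressor, was at -1.96, -1.79 and -2.72, and at -0.22 at 1 h (adjusted p of the difference = 0.0455, and 0.0564 with plates centred). Parm1, a membrane mucin, was at -1.20, -1.10 and -1.29, and Gadd45a, a growth arrest and DNA damage gene, at -1.26, -1.05 and -1.22. In these 5 genes every array of 18 h was below the 1 h mean.

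**Figure D2:**
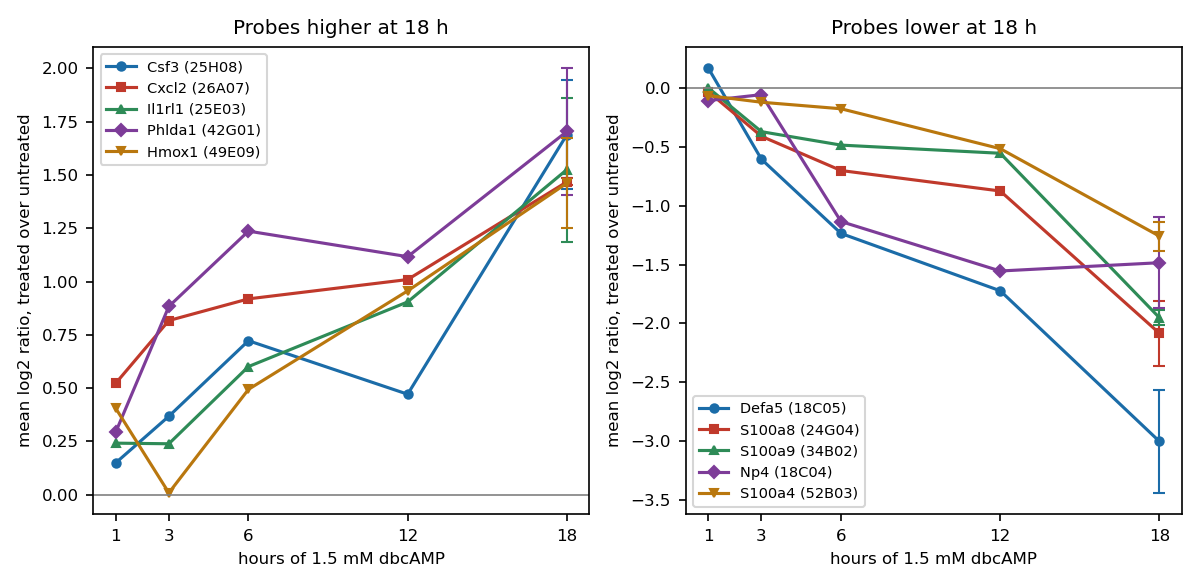
Mean log2 ratio of dbcAMP-treated over untreated cells (vertical axis) against hours of dbcAMP (horizontal axis) for 5 genes that rose (left) and 5 that fell (right) at 18 h, with the SD of the 3 arrays as error bars at 18 h. Csf3 lies at 0.15 at 1 h and 1.69 at 18 h, and S100a9 at 0.0017 at 1 h and -1.95 at 18 h.

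Cytokine genes had more members up than down. Of 61 probes of interleukins, TNF family, interferons, colony-stimulating factors and their receptors, 10 rose (16.4%, against 7.19% of all probes) and 5 fell (8.2%, against 8.21%), with a median of 0.14. With array weights 7 rose and 1 fell. Besides Csf3, those that rose included the receptor of interleukin-33, Il1rl1, and members of the gp130 system, which signals through Stat3. Il1rl1 rose with both of its probes, at 1.54, 1.18 and 1.85 with 25E03 and at 0.93, 0.59 and 0.38 with 25E02. The second probe did not pass with plates centred and array weights (adjusted p = 0.0727) nor without array 1 (adjusted p = 0.0731). Ctf1, cardiotrophin-1, a ligand of gp130, was at 0.39, 1.02 and 0.96 (adjusted p = 0.00289), and at -0.38 at 1 h. Il6st, gp130 itself, was at 0.45, 0.90 and 0.61 (adjusted p = 0.0091, and 0.0723 without array 2). Csf1, the macrophage growth factor, was at -0.89, -0.80 and -0.85 and fell, as did Tnfrsf4, a costimulatory receptor of T cells, at -0.65, -0.71 and -1.03, but neither passed with plates centred and array weights (adjusted p = 0.0921 and 0.0574). Of the cytokines of type 2 immunity, Il4 rose, at 3.18, 0.94 and 0.45 (adjusted p = 0.00889, and 0.0493 without array 1, where the mean was 0.699). Il5, the eosinophil growth factor, fell, at -1.02, -1.99 and 0.07 (adjusted p = 0.0146, and 0.139 without array 2). Single arrays thus set much of the size of both.

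Chemokines recruit leukocytes, and the CXC ligands with a glutamate-leucine-arginine motif draw neutrophils through Cxcr2. Of 31 probes of chemokines and their receptors 7 rose (22.6%) and 3 fell (9.68%), with a median of 0.14 as deposited and 0.16 with plates centred, and 4 and 3 passed with array weights. The neutrophil attractants led. Cxcl2 was at 1.48, 1.45 and 1.47, a mean of 1.47 ± 0.017 (SD, n = 3, adjusted p = 1.81e-06), and at 0.52 at 1 h. Cxcl1 was at 0.99, 0.72 and 0.89, Cxcl3 at 1.40, 0.47 and 0.68 and Cxcl6 at 0.60, 0.78 and 0.87, so that all 4 were above 0 on every array. Cxcl1 was already at 0.63 at 1 h. Ackr3, a scavenging receptor of Cxcl12, was at 1.71, 0.97 and 0.99 (adjusted p = 9.39e-05), and Ccl20, a ligand of Ccr6, at 0.73, 0.32 and 0.90. Of the receptors, Cxcr4, which Cxcl12 binds, rose with probe 25F02, at 0.32, 0.26 and 0.55, and was at -0.43, -0.06 and -0.06 with 52D06, which did not pass. Ccr2 and Ccr7 fell. Ccr2, the monocyte receptor of Ccl2, was at -1.73, -2.71 and -2.22 (adjusted p = 5.38e-05), and Ccr7, the lymph node homing receptor, at -2.33, -1.14 and -0.97 (adjusted p = 0.000295). The third probe that fell was 1 of Ccl2. With plates centred and array weights, Cxcl6, Ccl20 and Cxcr4 did not pass (adjusted p = 0.0752, 0.0813 and 0.231).

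**Figure D3:**
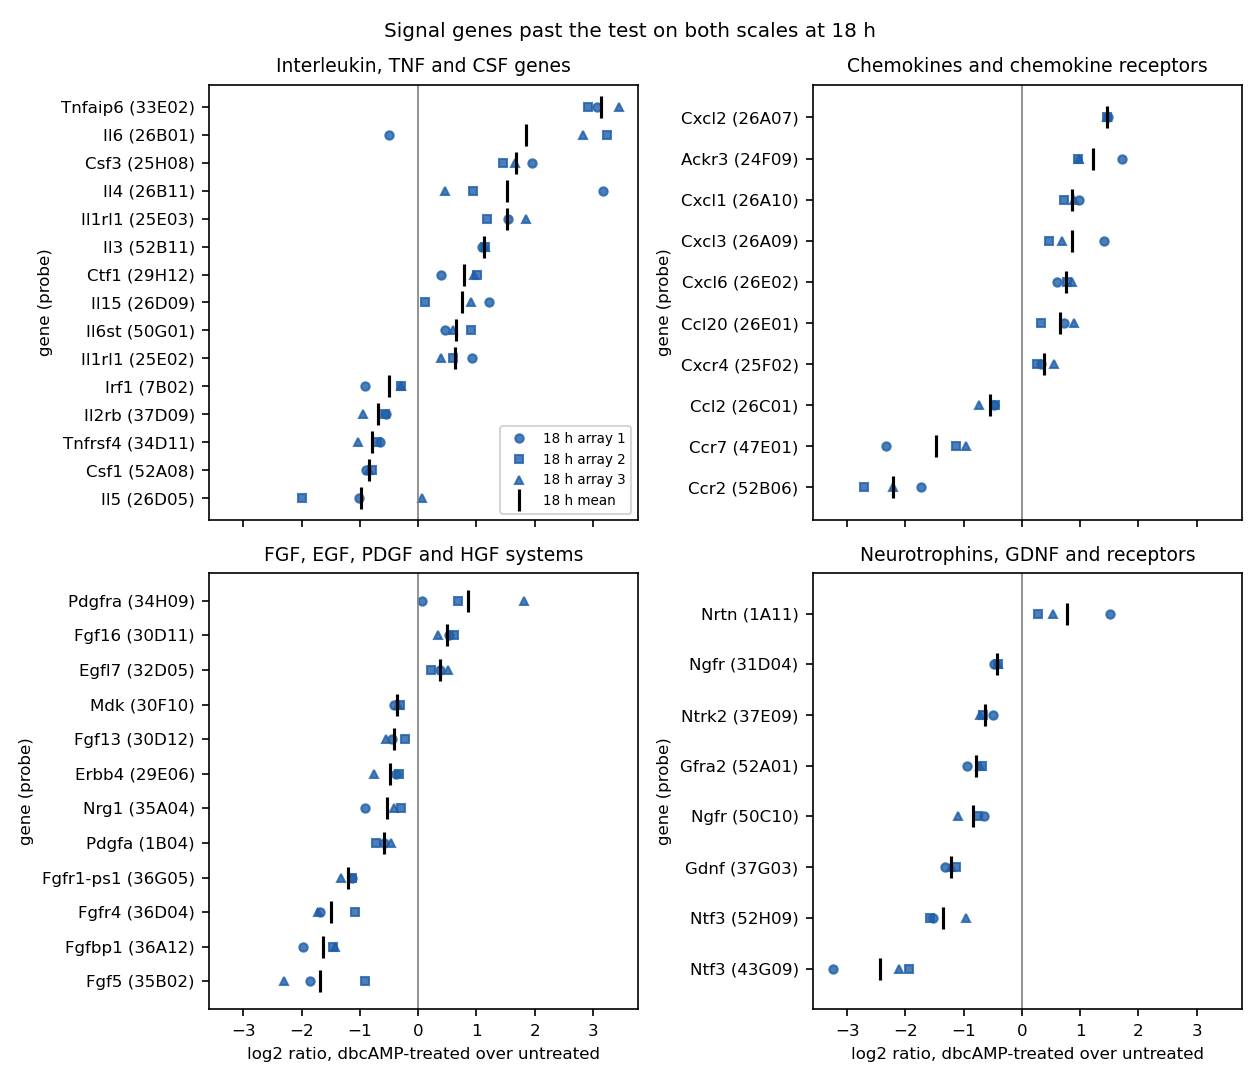
Log2 ratio of dbcAMP-treated over untreated cells (horizontal axis) on the 3 arrays of 18 h, with their mean as a bar, for all probes of 4 gene families that passed on both scales. Cxcl2 lies between 1.45 and 1.48, and 7 of the 8 probes of neurotrophins, GDNF ligands and their receptors lie below 0.

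Among growth factors the neurotrophin and GDNF families, which keep DRG neurons alive and guide their target innervation, had the largest share of members down. Of 20 probes 7 fell (35%, against 8.21% of all) and 1 rose (5%, against 7.19%), with a median of -0.23 as deposited and -0.062 with plates centred, and 3 fell with array weights. Ntf3, the ligand of TrkC, fell with both probes, which were at -3.25, -1.94 and -2.11 (43G09) and at -1.53, -1.57 and -0.96 (52H09), and at -1.24 and -0.58 at 1 h. Gdnf, ligand of Ret through Gfra1, was at -1.32, -1.13 and -1.22 at 18 h (adjusted p = 0.000154), with a difference from 1 h of -1.23 (adjusted p = 0.0122). Ngfr, the p75 receptor, was at -0.47, -0.40 and -0.41 with 31D04 and at -0.65, -0.75 and -1.09 with 50C10, and neither probe passed with array weights (adjusted p = 0.138 and 0.063). Ntrk2, the receptor of brain-derived neurotrophic factor, was at -0.50, -0.67 and -0.72, and did not pass with plates centred and array weights (adjusted p = 0.0575). Leaving out array 1, 2 or 3 also ended the call of Ngfr 31D04 (adjusted p = 0.0832, 0.0579 and 0.0588), and leaving out array 3 that of 50C10 (adjusted p = 0.101). Nrtn, neurturin, was the member that rose, at 1.51, 0.28 and 0.53 (adjusted p = 0.0228, and 0.229 without array 1), and did not pass with array weights (adjusted p = 0.0586).
In the FGF, EGF, PDGF and HGF systems 9 of 45 probes fell (20%) and 3 rose (6.67%), and 4 and 1 did so with array weights. Fgf5, a fibroblast growth factor, was at -1.86, -0.91 and -2.30 and at 0.03 at 1 h. Fgfr4, a receptor of fibroblast growth factors, was at -1.68, -1.08 and -1.72 and at 0.14 at 1 h, and Pdgfa, a platelet-derived growth factor, at -0.59, -0.72 and -0.47 and at 0.14 at 1 h. These 3 genes were on the other side of 0 at 1 h than on every array of 18 h. Nrg1, the neuregulin that Schwann cells depend on, fell with probe 35A04, at -0.91, -0.29 and -0.41 (adjusted p = 0.0692 without array 1), and was at 0.50, 0.34 and 0.60 with 34C08, which did not pass as deposited.
In the TGF-beta, activin and BMP list, 3 of 47 probes rose (6.38%, against 7.19% of all probes) and 5 fell (10.6%, against 8.21%), or 2 and 3 with array weights. Inhba, the activin A subunit, was at 1.65, 0.85 and 1.24 (adjusted p = 0.000464), and Fst, the secreted follistatin that binds activin, at 0.84, 1.43 and 0.39 (adjusted p = 0.00136). Inhba was at -0.13 and Fst at 0.03 at 1 h. Another activin subunit, Inhbe, fell, at -0.24, -0.77 and -0.93 (adjusted p = 0.00318), so that activin subunits moved in both directions. Tgfb3 was at -0.57, -1.02 and -1.01, and did not pass with plates centred and array weights (adjusted p = 0.117). In the VEGF list, Vegfd, a lymphatic growth factor, was at 0.47, 1.33 and 3.18 with 52H11 and at 0.24, 0.13 and 0.14 with 29H11, which did not pass. Pgf, placental growth factor, was at 0.79, 0.44 and 0.40 and rose. Vegfa, which drives vessel growth, had probes that disagreed, at 0.67, 1.01 and 0.75 with 25C10 and at -1.10, -1.96 and -1.05 with 52C12, the second at -1.24 at 1 h.

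Guidance cues tell a growth cone where to turn. Of 34 probes of axon guidance genes 5 fell (14.7%) and 0 rose, with a median of -0.11 as deposited and 0.0017 with plates centred, and 3 fell with array weights. Slit1, a repellent for Robo receptors, was at -2.31, -2.09 and -1.82 with probe 43E12 (adjusted p = 2.25e-05), and at -0.16, -0.11 and 0.13 with 52D01 (adjusted p = 0.77). Slit2 was at -1.31, -1.36 and -1.83, and at -1.58 at 1 h. Unc5b, a netrin receptor of repulsion, was at -1.57, -0.81 and -1.25 with 52F06 and at -0.20, -0.60 and 0.30 with 25E10 (adjusted p = 0.432). The repellent Sema3a was at -1.47, -1.30 and -1.48, and did not pass with plates centred and array weights (adjusted p = 0.0994), nor did Unc5a (adjusted p = 0.0863), whose other probe gave the list's highest mean, 0.60, from 2 arrays. All 5 probes that fell came from plates 43 and 52, whose medians were -0.51 and -0.34.
Cadherins, protocadherins, contactins and IgLON proteins join cells to each other. Among 52 such probes 10 fell (19.2%, against 8.21% of all probes) and 3 rose (5.77%, against 7.19%), and 5 and 2 did so with array weights. By the test of the difference between 18 h and 1 h, 0 of the 10 were called lower and 0 of the 3 higher at 18 h. The lowest was Lsamp, an IgLON of limbic neurons, at -2.53, -2.19 and -2.59 (adjusted p = 2.04e-05), and already at -1.06 at 1 h. Pcdhb12, a clustered protocadherin, fell with both probes, at -2.73, -1.16 and -2.18 (43D07) and at -1.76, -1.23 and -1.29 (43C05, adjusted p = 0.0909 without array 1). At 1 h these probes were at -0.85 (43D07) and -0.67 (43C05). Cdh1, E-cadherin, fell with probe 52F10, at -2.15, -0.98 and -0.85, and at -0.67 at 1 h, whereas 33D07 was at -0.03, -0.22 and 0.10. Lsamp and Pcdhb12 came from plate 43 and Cdh1 52F10 from plate 52, whose medians were -0.51 and -0.34. Those that rose with array weights were Cdh6, at 0.67, 0.64 and 1.27, and Ntm, another IgLON, at 0.53, 0.76 and 0.65. The cytokine-induced Vcam1 was at -1.37, -2.13 and -0.62, and did not pass with array weights (adjusted p = 0.0566).

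Matrix genes rose and fell in shares near those of all probes. Of 49 probes of collagens and other matrix proteins 4 rose (8.16%, against 7.19% of all) and 3 fell (6.12%, against 8.21%), with Col18a1 and Tnc at the ends. Thbs4, a thrombospondin, was at -0.98, -0.87 and -1.10, and did not pass with array weights (adjusted p = 0.0667). Of 28 probes of metalloproteases and their inhibitors 5 rose (17.9%) and 2 fell (7.14%), or 1 and 2 with array weights. Ece1, which makes endothelin, was at 1.61, 0.81 and 1.19 and was already at 0.77 at 1 h. Mmp12, the macrophage elastase, was at 1.00, 0.93 and 1.03 and at -0.044 at 1 h, but passed on the deposited scale alone with array weights (adjusted p = 0.00887, and 0.0554 with plates centred). Adam2, a sperm surface protein, was at -1.52, -1.47 and -1.34.
Plat, tissue plasminogen activator, which growth cones release, was at 1.04, 0.91 and 1.17, a mean of 1.04 ± 0.13 (SD, n = 3, adjusted p = 1.56e-05), and 0.86 above its level at 1 h (adjusted p = 0.00753). Cst3, an inhibitor of cathepsins, was at -0.55, -0.84 and -0.64 and fell, and Ctsl, a lysosomal cathepsin, was at 0.97, 1.05 and 0.44 and rose. Thus a cathepsin and a cathepsin inhibitor were on opposite sides of 0 on all 3 arrays. The placental cathepsin Ctsq was at -1.58, -2.38 and -1.08.

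Solute carriers bring sugars, amino acids and ions across membranes. Of 136 probes 18 rose (13.2%) and 4 fell (2.94%), and 8 and 2 did so with array weights. Their median was 0.22 as deposited and 0.03 with plates centred. Slc2a5, a fructose transporter, was at 1.07, 0.85 and 0.93, and Slc6a20a, a proline transporter, at 0.88, 0.54 and 1.39. Slc18a3, the vesicular acetylcholine transporter, was at 1.52, 1.48 and 0.83 and Slc24a1, an exchanger of sodium, calcium and potassium known from rods, at 1.91, 1.51 and 0.42. All 4 were near or above 0 at 1 h, between 0.0016 and 0.44. Slc28a1, a nucleoside transporter, gave the lowest mean, with arrays at -1.35, -2.30 and -0.33.
Nuclear-encoded respiratory chain and ATP synthase subunits went the other way. Of 32 probes 5 fell (15.6%) and 0 rose, and 3 fell with array weights, with medians of -0.11 as deposited and -0.13 with plates centred. Cox6c, a subunit of cytochrome oxidase, was at -0.77, -0.56 and -0.69 with 2G09 (adjusted p = 0.000261) and averaged -1.16 with 2H11, -0.73 without its lowest array, array 1 (adjusted p = 0.0832), but at -0.07, -0.04 and 0.31 with 46H08, which did not pass. Atp5f1e, the epsilon subunit of ATP synthase, was at -0.40, -0.58 and -0.59. Cox5b, at -1.01, -1.61 and -0.60, did not pass without array 2 (adjusted p = 0.1) nor with plates centred and array weights (adjusted p = 0.0766). Glycolytic genes, with the carriers of glucose and lactate, had 84 probes, of which 17 rose (20.2%) and 3 fell (3.57%). Of these, 53 were spots of Gapdh, of which 6 rose. Without Gapdh 11 of 31 probes rose (35.5%, against 7.19% of all) and 3 fell (9.68%, against 8.21%), and 8 and 1 did so with array weights. Slc2a1, the glucose carrier GLUT1, was at 1.14, 1.03 and 1.51 (adjusted p = 8.09e-06), and Slc16a3, which exports lactate, at 1.25, 0.84 and 1.45 (adjusted p = 0.000208). The enzymes Tpi1 and Pgk1 were at 0.69, 0.75 and 0.93 and at 0.81, 0.40 and 0.75. These 4 genes were above 0 on every array.
Few members of 2 large housekeeping families changed. Of 66 probes of ribosomal proteins 0 rose (against 7.19% of all probes) and 1 fell (1.52%, against 8.21%), Rpl32 by 0.44. Of 29 probes of proteasome subunits 0 rose and 1 fell (3.45%), Psmd10 by 0.37. Neither passed with array weights.

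Excitability genes were examined by channel class. Of 45 probes of sodium, calcium, TRP and HCN channels 5 rose (11.1%) and 6 fell (13.3%), and with array weights 0 rose and all 6 fell. The calcium channel subunits led those that fell. Cacnb2, an auxiliary beta subunit, was at -2.42, -2.01 and -1.54 (adjusted p = 8.69e-06), Cacnb4 at -0.82, -0.65 and -1.18, and Cacna1a, the pore of P/Q-type channels, at -1.31, -0.94 and -1.10. Cacnb2 and Cacna1a were at -1.06 and -1.02 at 1 h. Cacna1e, the R-type pore, was at -1.15, -1.18 and -0.89 with 41D01 but at 0.84, 0.74 and 0.67 with 21F09 and at 0.38, 0.42 and 0.17 with 21H01, and no direction can be given for this gene. Hcn3, a pacemaker channel, was at -1.31, -2.29 and -1.06, and at -0.11 at 1 h.
Of 66 potassium channel probes 4 rose (6.06%, against 7.19% of all probes) and 2 fell (3.03%, against 8.21%). Kcnk10, the leak channel TREK-2, was at 1.22, 1.15 and 0.83 (adjusted p = 0.000312), and Kcnj8, a pore of ATP-sensitive channels, at 1.24, 0.81 and 1.06 (adjusted p = 0.000344). Grik1, the kainate receptor of small DRG neurons, was at -1.89, -1.50 and -1.42, and at -0.29 at 1 h.
G protein-coupled receptors had 14 of 118 probes down (11.9%) and 4 up (3.39%), or 4 and 1 with array weights, with medians of -0.22 and, plates centred, -0.075. F2r, the thrombin receptor, was at 1.08, 0.96 and 0.83 and at -0.03 at 1 h. Hrh1, the histamine receptor of itch and allergy, was at -1.85, -2.21 and -1.21, and at -0.96 at 1 h. Chrm3, a muscarinic receptor, fell with probe 41C08, at -1.91, -1.77 and -2.58, and was at 0.22, 0.32 and 0.30 with 29G11 (adjusted p = 0.135).

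Genes of the cytoskeleton included several that are abundant in growing axons. Of 54 actin and myosin probes 6 fell (11.1%) and 2 rose (3.7%), or 4 and 1 with array weights. Both thymosins, which hold actin monomers, fell: Tmsb10 was at -1.05, -0.78 and -1.18 (adjusted p = 2.97e-05) and Tmsb4x at -0.72, -0.87 and -0.96 (adjusted p = 0.000249). Arpc1b, of the Arp2/3 complex, was at -0.36, -0.58 and -0.35. Of 51 tubulin, microtubule-associated and motor probes 5 rose (9.8%, against 7.19% of all probes) and 4 fell (7.84%, against 8.21%). Tubb2b, a neuronal beta-tubulin, was at -0.57, -0.82 and -0.69, and Tubg1 and Map1b were the highest.

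Genes of the cell cycle drive DNA synthesis and division. Of 45 cell cycle and growth arrest probes 6 fell (13.3%) and 2 rose (4.44%), or 4 and 1 with array weights. The 1 that rose with array weights was Cdc42bpa, a kinase that binds the small GTPase Cdc42. It is counted among small GTPases and their regulators too, and is no cell cycle gene in the strict sense. Bub1b, a spindle checkpoint kinase, was at -0.92, -0.51 and -1.13 and at 0.08 at 1 h, and E2f1, the S-phase transcription factor, at -1.22, -1.41 and -1.14 and at -1.22 at 1 h. Ccnd1, cyclin D1, had unequal probes, at -1.27, -1.69 and -1.40 with 53G02, which was at -2.44 at 1 h, and at 0.55, 0.27 and 0.57 with 30F03. Of 11 histone and chromatin probes the 3 that fell (27.3%, against 8.21% of all probes) were high mobility group genes, and 0 rose. Hmgb1 was at -0.77, -0.77 and -0.92 (adjusted p = 4.26e-05), Hmga2 at -0.35, -0.58 and -0.69 and Hmgb2 at -0.42, -0.42 and -0.71, and Hmgb2 did not pass with array weights (adjusted p = 0.0826).
In Wnt and Notch signalling, 5 of 26 probes fell (19.2%) and 0 rose, or 2 with array weights, Hes1 and Wnt4. Wnt4 was at -1.39, -0.61 and -1.48, and at -1.05 at 1 h. Klf15, a glucocorticoid-induced factor, was at -0.91, -0.86 and -0.69, and at -0.03 at 1 h. Creb1, the gene of CREB, fell with both probes, at -0.66, -1.04 and -0.72 (52F09) and at -0.36, -0.95 and -0.58 (7D04). With array weights, 52F09 did not pass with plates centred (adjusted p = 0.139) and 7D04 did not pass as deposited (adjusted p = 0.0588), nor without array 2 (adjusted p = 0.067). Myc was at 0.51, 0.39 and 0.84 and rose.
Of 49 probes of enzymes and anchors of cAMP signalling 4 rose (8.16%, against 7.19% of all probes) and 3 fell (6.12%, against 8.21%). The phosphodiesterases Pde4b and Pde4a, which break cAMP down, were on opposite sides, at 1.29, 1.12 and 1.19 for Pde4b and at -0.89, -0.54 and -0.98 for Pde4a. Gnas, the stimulatory G protein, was at -0.61, -0.51 and -0.59 and fell.

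Genes that DRG neurons and their glia are known to raise after axotomy moved in both directions. Of 39 such probes 11 fell (28.2%, against 8.21% of all) and 5 rose (12.8%, against 7.19%), and 5 and 5 did so with array weights. Npy, a neuropeptide of injured large neurons, was at 1.14, 1.60 and 0.92 (adjusted p = 0.000208), and Arg1, the arginase that makes polyamine precursors, at 1.51, 0.58 and 1.28 (adjusted p = 0.000414). Tuba1a, the alpha-tubulin of growing neurites, was at -2.48, -0.81 and -0.57 with 28E09 and fell (adjusted p = 0.00395, and 0.0174 without array 1), and was at -0.29, -0.08 and -0.08 with 52G06 (adjusted p = 0.508). Gal, the peptide galanin, was at -0.78, -0.85 and -0.64 and Stmn1, which binds free tubulin and destabilises microtubules, at -0.78, -0.71 and -1.11, and neither passed with plates centred and array weights (adjusted p = 0.0585 and 0.0616). Npy and Arg1 were thus above 0 on every array, and the probes of Tuba1a differed in size.

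Several neutrophil genes were among the most lowered. Of 11 markers of granulocytes and mast cells 4 fell (36.4%, against 8.21% of all probes) and 0 rose, all 4 also with array weights and from the 18 h arrays alone. S100a8 and S100a9, which form calprotectin, were at -2.21, -2.28 and -1.77 and at -1.99, -1.88 and -1.99 (adjusted p = 8.46e-07 and 2.19e-08). Defa5 and Np4, defensins of the granules, were at -2.53, -3.40 and -3.08 and at -1.41, -1.91 and -1.14 (adjusted p = 4.29e-06 and 1.56e-05). All 4 lay within 0.17 of 0 at 1 h, and their arrays at 18 h did not overlap that level. The other 7 markers of the list, among them the defensin Defa24 and the mast cell genes Kit, Cpa3, Cma1 and Tpsab1, had means between -0.51 and 0.26 and did not pass. Defa24 was at 0.52, 0.35 and -0.34, so the defensins did not all fall. Of 15 probes of S100 proteins and annexins, calcium-binding proteins, 5 fell (33.3%) and 0 rose, or 4 with array weights. S100a4, which fibroblasts, Schwann cells and leukocytes express, fell with both probes, at -1.11, -1.35 and -1.20 (31A12) and at -1.16, -1.22 and -1.40 (52B03), and S100a6 by 0.40.
Markers of other cells are set against the 7.19% of all probes that rose and the 8.21% that fell. Of 14 fibroblast probes 2 rose (14.3%) and 3 fell (21.4%), all 5 also with array weights: Lox, which cross-links collagen, and Pdgfra rose, and a probe of Col1a1 and both of S100a4 fell. Pdgfra was at 0.06, 0.68 and 1.82 and did not pass without array 3 (adjusted p = 0.158), and the other Col1a1 probe, 32D04, did not pass. Of 9 macrophage probes 1 rose (11.1%) and 0 fell, of 8 endothelial and 7 red blood cell probes 0 did either, and of 10 satellite glial probes 2 rose (20%, Kcnj10 and Slc1a2, neither with plates centred and array weights) and 0 fell. Of 13 skeletal muscle probes 1 fell (7.69%, Tnnt2) and 0 rose. Of 21 Schwann cell probes 4 fell (19%) and 2 rose (9.52%). Cnp, of myelinating cells, was at -0.66, -0.69 and -0.61 and fell, as did Dhh and both probes of Ngfr. Those that rose were Egr2, at 0.55, 0.63 and 0.63, and Gjb1, at 1.05, 1.02 and 0.12. Gjb1 did not pass without array 1 nor without array 2 (adjusted p = 0.0938 and 0.0829). Mbp and Pmp22, of compact myelin, had means of -0.20 and 0.07 and did not pass. Of 30 sensory neuron probes 3 fell (10%) and 1 rose (3.33%), and the peptide genes Calca (35C05 and 52C03) and Tac1 had means of -0.14, -0.13 and -0.08 and did not pass. Of 16 lymphocyte probes 4 rose (25%) and 2 fell (12.5%), or 3 and 0 with array weights. Cd8a, at 0.73, 1.30 and 0.83, and Cd4, at 0.33, 0.35 and 1.10, rose. Nkg7, at -1.17, -0.28 and -0.80, and Klrd1, at -0.54, -0.71 and -0.38, fell. Cd3d and Cd3g, of the T cell receptor, had means of 0.21 and -0.24 and did not pass. Granzyme B, a protease of cytotoxic cells, rose with probe 13A10, at 1.08, 0.44 and 1.07, and with 13D11, at 1.55, 3.16 and 0.93 (mean 1.88, or 1.24 without array 2), but Gzmb probe 13E12 was at 0.41, 0.07 and -0.39. The part of cell numbers in any of these ratios was not tested.

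Of 187 genes with several probes, Gapdh aside, 62 had a probe that rose or fell. All probes of 8 genes did so in 1 direction: Il1rl1 and Mt1 rose, and Ceacam3, Creb1, Ngfr, Ntf3, Pcdhb12 and S100a4 fell. Ceacam3, an adhesion molecule of the carcinoembryonic family, was at -0.65, -0.95 and -0.47 (32G10) and at -1.36, -0.66 and -0.79 (48F02, adjusted p = 0.0585 with plates centred and array weights). In Cacna1e and Vegfa, 2 probes were called in opposite directions.

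**Figure D4:**
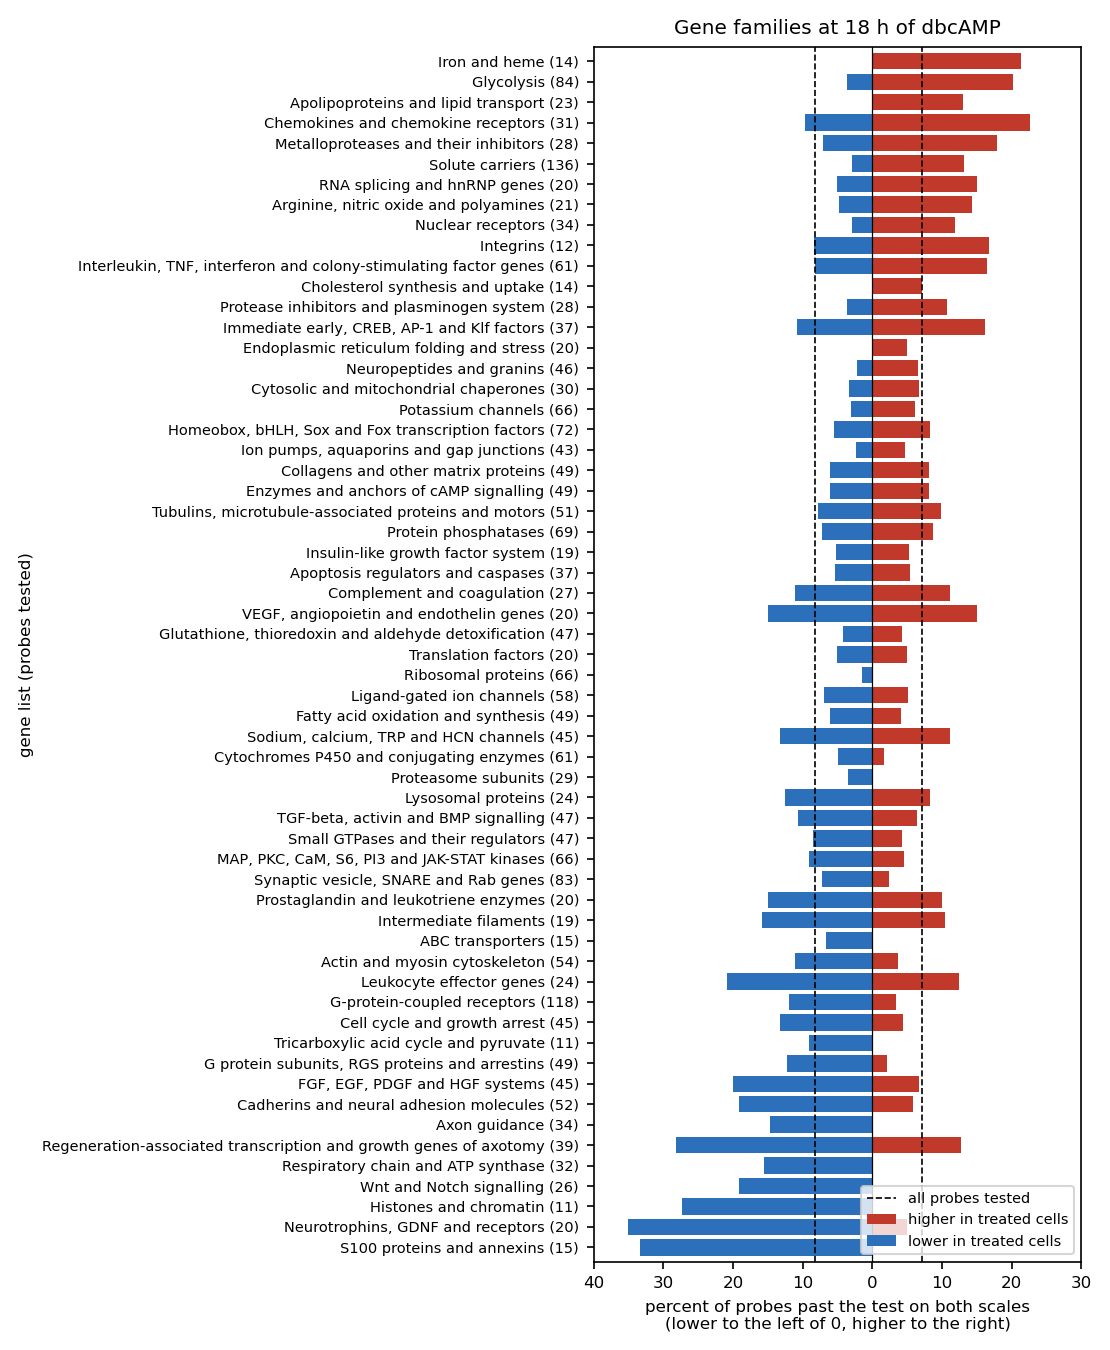
Percent of tested probes of each gene family with at least 10 probes (vertical axis, number of probes in parentheses) that passed at 18 h on both scales, higher in dbcAMP-treated than in untreated cells to the right of 0 and lower to the left. Dashed lines mark all probes tested, at 7.19% and 8.21%. Chemokines reach 22.6% higher, and neurotrophins with GDNF ligands and receptors 35% lower.

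The plate of a probe and its ratio were related at 18 h. Plate medians lay between -0.017 and 0.29 on plates 1 to 35, and between -0.51 and -0.012 on plates 36 to 53, below 0 on 18 of 18 of these later plates. One gene allowed a comparison between plates, since well A01 of plates 1 to 51 held Gapdh, the glycolytic enzyme. Its 51 spots ranged from -0.15 to 0.36, with a mean of 0.20 ± 0.072 (SD, n = 16 spots) on plates 36 to 51 and 0.13 ± 0.11 (n = 35 spots) on plates 1 to 35. The repeated Gapdh spot was thus no lower on the later plates, where the medians were lower. Centring on plate medians moved it to 0.43 ± 0.17 on plates 36 to 51 and 0.028 ± 0.15 on plates 1 to 35, and raised its calls to 15 higher and 1 lower, against 6 higher and 0 lower as deposited. Spots of 1 array are not replicates of a treatment, and no test was made. Plate and gene content cannot be told apart for the other probes. On plate 43, 41 of 96 probes were lower and 2 higher as deposited, and 30 and 2 passed on both scales.

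**Figure D5:**
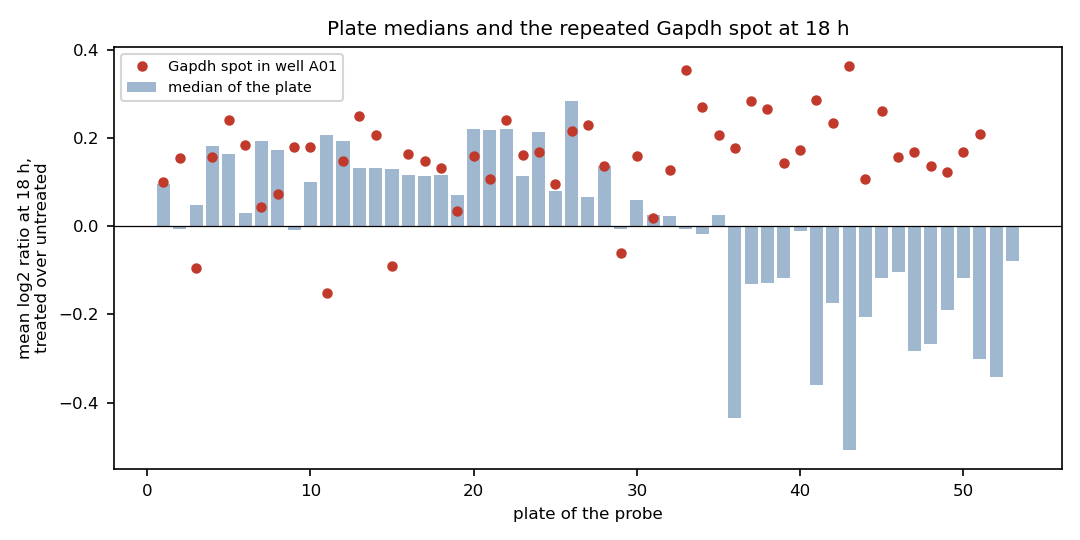
Median log2 ratio at 18 h of the probes of each plate (bars) and the log2 ratio of the Gapdh spot in well A01 (points), as means of the 3 arrays of dbcAMP-treated over untreated cells (vertical axis), by plate number (horizontal axis). The medians of plates 36 to 53 lie below 0, and the Gapdh spots of plates 36 to 51 lie above 0.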

How the data were processed

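Ratios of treated (Cy5) over untreated (Cy3) cells on spotted oligonucleotide arrays were used as the authors deposited them, as 1 linear ratio per probe and array. How the ratios were background-corrected and normalized is not stated in the labels or the methods, and scanner intensities were not analysed here. The log2 ratio was fitted with limma 3.58.1 in R 4.3.3 (lmFit over all 5088 probes and 15 arrays, 1 mean per time, eBayes, two-sided) and p-values were adjusted by Benjamini-Hochberg over the probes tested. A probe needed a ratio on 2 of 3 arrays, and between 90 and 94 probes had none on an array of 18 h. The number of arrays limits the precision. The fits were tested on simulated data. With the spread between arrays unequal between times, as here, the fit of all times made more false calls there than its threshold allows. The platform annotation gave 1 symbol to 4423 probes, several to 2 and none to 663, and 4375 matched the GRCr8 gene table with 0 symbols changed.
The alternatives were array-median, plate-median and trimmed plate-mean centring, a common spread, array weights, the arrays of 18 h alone, a replicate block, a robust prior, other thresholds, the methods' t-test and leaving out each array. Named were the 12 highest and 12 lowest probes called on both scales with 1 sign on all arrays, an SD under 0.5 of the mean and no gene of the study's first figure, up to 4 members with the smallest p and the extreme members of each list, and genes whose probes all passed. Further genes were named after their values were seen, and the counts that also pass with array weights, the glycolysis count without Gapdh and the comparison of Gapdh spots with plate medians were chosen after seeing the data. Members, lists and rules were chosen with earlier results of these data known. The first group is labelled 1 h where the treatment protocol lists 0 h.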

Additional observations from a re-analysis of the deposited data

Results flagged for a closer look

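Ratios that differed between 18 h and 1 h of dbcAMP were marked for a closer look, by the limma test of the difference. They comprised 59 probes that were higher and 78 that were lower at 18 h. Among the highest named probes, the difference was 2.58 for Tnfaip6, 1.34 for Ptgs2 (16H10), 1.41 for Phlda1, 1.54 for Csf3 and 1.28 for Il1rl1 (25E03), as log2. Among the lowest it was -3.17 for Defa5, -1.76 for Adam6, -1.49 for Olig1 and -1.50 for Ccr2. With plates centred the differences of Olig1 and Ccr2 did not pass (adjusted p = 0.087 and 0.0843). Leaving out 1 array of 1 h lowered the total of 137 to between 42 and 56 probes. Groups of 3 arrays are too small to look for a single outlying array.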

How the results depend on the processing

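The count of probes changed at 18 h, 1101, lay within 1.5 times under array-median and plate-median centring, the replicate block (1088), the robust prior, the filter on 3 of 3 arrays and the methods' t-test without adjustment. It moved to 436 with a common spread, 183 from the arrays of 18 h alone, 669 with array weights, 617 at a threshold of 0.01, 275 with at least 2-fold change and 1 by the methods' t-test after Benjamini-Hochberg, and was 808 to 918 without 1 array of 18 h. The share of higher among called probes was 48.4%, 32.2% from the 18 h arrays alone and 33.5% with at least 2-fold change. For probes changed at 18 h with plate-median centring, 1003 became 74 from the 18 h arrays alone and 435 with array weights (955 with the replicate block, 695 to 810 without 1 array). Of those 74, 28.4% were higher. For probes with a difference between 18 h and 1 h, 137 became 48 in the 6 arrays of these times and 12 with a common spread (25% higher, against 43.1%), was 102 with the replicate block, 79 to 164 without 1 array of 18 h and 42 to 56 without 1 of 1 h. Of 220 named probes 0 changed direction under any alternative. Most were named because they passed on both scales, largely with 1 sign on all 3 arrays, so this 0 was mostly set by their choice. Of the 220, 82 passed from the 18 h arrays alone, 187 with array weights, 150 with a common spread and 215 with the replicate block. Same-numbered arrays of different times did not deviate together (30 pairs, mean r -0.0038, 0 over 0.1). An effect shared by the treated and untreated cells of a culture cancels in the ratio. These values therefore cannot tell whether the numbers pair cultures.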

Other observations

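Lens genes, noticed after the values were seen and therefore given as values, were often low at 18 h. Of 13 probes of crystallins and other lens proteins 7 fell (53.8%, against 8.21% of all probes) and 1 rose (7.69%, against 7.19%) on both scales, and 6 (46.2%, against 4.25%) and 0 (against 3.26%) did so with array weights. Cryab, the small heat shock protein alpha B-crystallin, which many tissues express, was at -1.61, -1.64 and -1.65, and at -0.17 at 1 h. Cryba1 was at -1.95, -1.86 and -1.52, and at -0.40 at 1 h. Cryaa was at -1.79, -1.30 and -1.55, and already at -0.97 at 1 h. Crybb2, which also fell, was at -1.33, -1.27 and -1.46, and already at -1.29 at 1 h. Cryab, Cryba1, Cryaa and Crybb2 came from plate 43, as did Cryge, which was at 0.62, 0.86 and 0.14. Mip, at -0.74, -1.16 and -1.17, and Bfsp1, at -0.63, -0.22 and -0.99, came from plates 18 and 28, and both were above 0 at 1 h, at 0.25 and 0.44.

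Interferon-stimulated genes, noticed in the same way, had 4 of 7 probes down (57.1%, against 8.21% of all probes) and 0 up (against 7.19%), or 3 down with array weights (42.9%, against 4.25%). The antiviral genes Mx2, at -1.70, -1.49 and -1.55, and Rsad2, at -1.55, -1.22 and -1.68, were lowest, and Ifi27 was at -0.99, -0.63 and -0.77. Rsad2 was already at -0.87 at 1 h, whereas Mx2 and Ifi27 were at 0.07 and -0.01. Ifit1, Oas1a and Gbp2 did not pass, at -0.32, -0.23 and 0.14. The third defensin measured beside Defa5 and Np4, RatNP-3b, was at -1.42, -0.81 and -0.55 and fell, whereas Defa24 was at 0.52, 0.35 and -0.34. Of 6 probes of hypoxia-inducible factors and their regulators, 3 rose (50%, against 7.19% of all probes) and 0 fell, or 2 rose with array weights. Hif1a, the oxygen-regulated transcription factor, was at 1.04, 1.01 and 1.11 and Hif3a at 1.05, 1.28 and 0.50, and both rose, as did Arnt. Epas1, Egln3 and Vhl had means of 0.71, 0.42 and -0.04 and did not pass on both scales. The lens and interferon lists were put together because members were seen to be low. The defensin and hypoxia lists were also made after the values were seen, so the shares of all these lists support nothing. Of 616 probes without a symbol, 31 rose and 62 fell, where 360 and 411 of all 5006 probes did.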
